A study of Mus musculus with 2 samples.

Results

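The genes described here encode 10 proteins of blood coagulation and plasminogen activation, chosen by symbol from the 32285 genes of the deposited count matrices: F3, F7, F10, F13a1, Procr, Thbs1, Plau, Plaur, Plgrkt and Serpinb2. All 10 were found, each under 1 identifier. F10, Procr and Plgrkt had been picked because they differed between the libraries, so their differences are descriptions of the values that chose them, and the rest of the set was put together by function with earlier results of these data known.

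The cells came from mouse gingiva after 2 weeks of bacterially induced inflammation and a waiting period of 2 weeks, as 1 normoglycemic library and 1 diabetic library, the diabetes having been induced by streptozotocin, a toxin of insulin-producing beta cells. All mice of both groups were CD11CCre-/-;FoxoLL on a mixed C57B6-FVB background: they carried loxP sites around exon 2 of Foxo1 and no Cre, so that normal Foxo1 protein was made, per the series description. Ages were not given in the sources used here. Cells of 4 mice were pooled per library, dead (DAPI+), endothelial (CD31+) and red blood (Ter-119+) cells were sorted out, and CD45+ leukocytes were collected with a 20% enrichment of CD11c+ cells, the latter a surface protein of dendritic cells and of some macrophages. Each condition was a single library, so differences were not tested over animals. The matrices also held 4 antibody capture features whose meaning the labels do not give. They were not used, and whether they tell mice apart was not tested. Every interval below is a 95% interval for counting error only, and no p-values were computed.

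Coagulation is started by tissue factor, the product of F3, which binds factor VII (F7); this complex activates factor X (F10), which forms thrombin, and factor XIII (its A subunit from F13a1) crosslinks the fibrin that thrombin makes. The endothelial protein C receptor (Procr) helps to activate the anticoagulant protein C. Fibrin is removed by plasmin, made from plasminogen by the urokinase activator (Plau) on its receptor (Plaur), with Plgrkt as a plasminogen-binding receptor in the membrane and Serpinb2 (plasminogen activator inhibitor type 2) as an inhibitor of urokinase. Thrombospondin 1 (Thbs1) is a matrix and platelet protein that binds fibrinogen, plasminogen and CD36. Monocytes and macrophages are known to make many of these proteins locally in inflamed tissue.

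The normoglycemic matrix held 11280 barcodes with 89339733 unique molecular identifiers (UMIs, counted molecules) and the diabetic matrix 10496 barcodes with 78220582 UMIs, and 32 barcode sequences occurred in both. After filtering, marker gates placed 5298 normoglycemic and 4957 diabetic cells among neutrophils, 1022 and 1015 among monocytes, 1360 and 1156 among macrophages, 402 and 286 among type 2 conventional dendritic cells (cDC2) and 208 and 199 among type 1 conventional dendritic cells (cDC1). Mature dendritic cells (62 and 55) and mast cells (41 and 32) were given as levels without a ratio, since ratios needed 100 cells in each library. Of 21208 filtered cells, 2290 fitted no single class. Cells within 0.04 of the required lead over the next class numbered 142 and 114 for neutrophils, 301 and 279 for monocytes, 183 and 170 for macrophages, 133 and 136 for cDC2 and 15 and 31 for cDC1, so the cDC2 and monocyte gates were the least sharp for their size. Despite the CD45 sort, the diabetic library held 258 fibroblast, 257 mural or contractile and 134 secretory epithelial cells, against 21, 7 and 3 in the normoglycemic library. The class names below stand for cells that passed these gates. The leading genes of each gate held 2 to 7 of its own markers, among them Retnlg, S100a8 and Cxcr2 in neutrophils, Chil3, Vcan and Ly6c2 in monocytes, C1qa and Apoe in macrophages and Cd209a and Mgl2 in cDC2.

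Levels are UMIs per 1000000 UMIs of the class (counts per 1000000, CPM), and ratios are diabetic over normoglycemic CPM. A gene was counted as higher or lower where it reached 10 CPM in either library and differed at least 1.5-fold. By that rule 4 of the 8 members measured in neutrophils were lower in the diabetic library and 0 were higher, where 32.8% of all 4121 measured genes were that far apart (19.1% higher, 13.7% lower). In monocytes 3 of 9 members were lower and 0 higher, against 12.4% of all genes apart (5.0% higher, 7.36% lower). In macrophages 3 of 10 were lower and 1 higher, against 6.61% (2.57% higher, 4.04% lower). In cDC2 7 of 8 were lower and 0 higher, against 14.0% (6.39% higher, 7.66% lower), and in cDC1 3 of 6 were lower and 1 higher, against 12.2% (5.73% higher, 6.45% lower). The median log2 ratio of the measured members was -0.48 in neutrophils, -0.28 in monocytes, -0.28 in macrophages, -1.03 in cDC2 and -0.66 in cDC1, beside all-gene medians of 0.15, -0.01, -0.01, -0.00 and 0.02. Since 3 members had been picked for such differences, the counts are no evidence about the set. In neutrophils the split of all genes depended on the scaling: 786 genes were higher and 566 lower by total UMIs, 380 and 839 with edgeR's TMM factors, and 293 and 950 with DESeq2 size factors, which moved log2 ratios by -0.20 and -0.26.

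**Figure D1:**
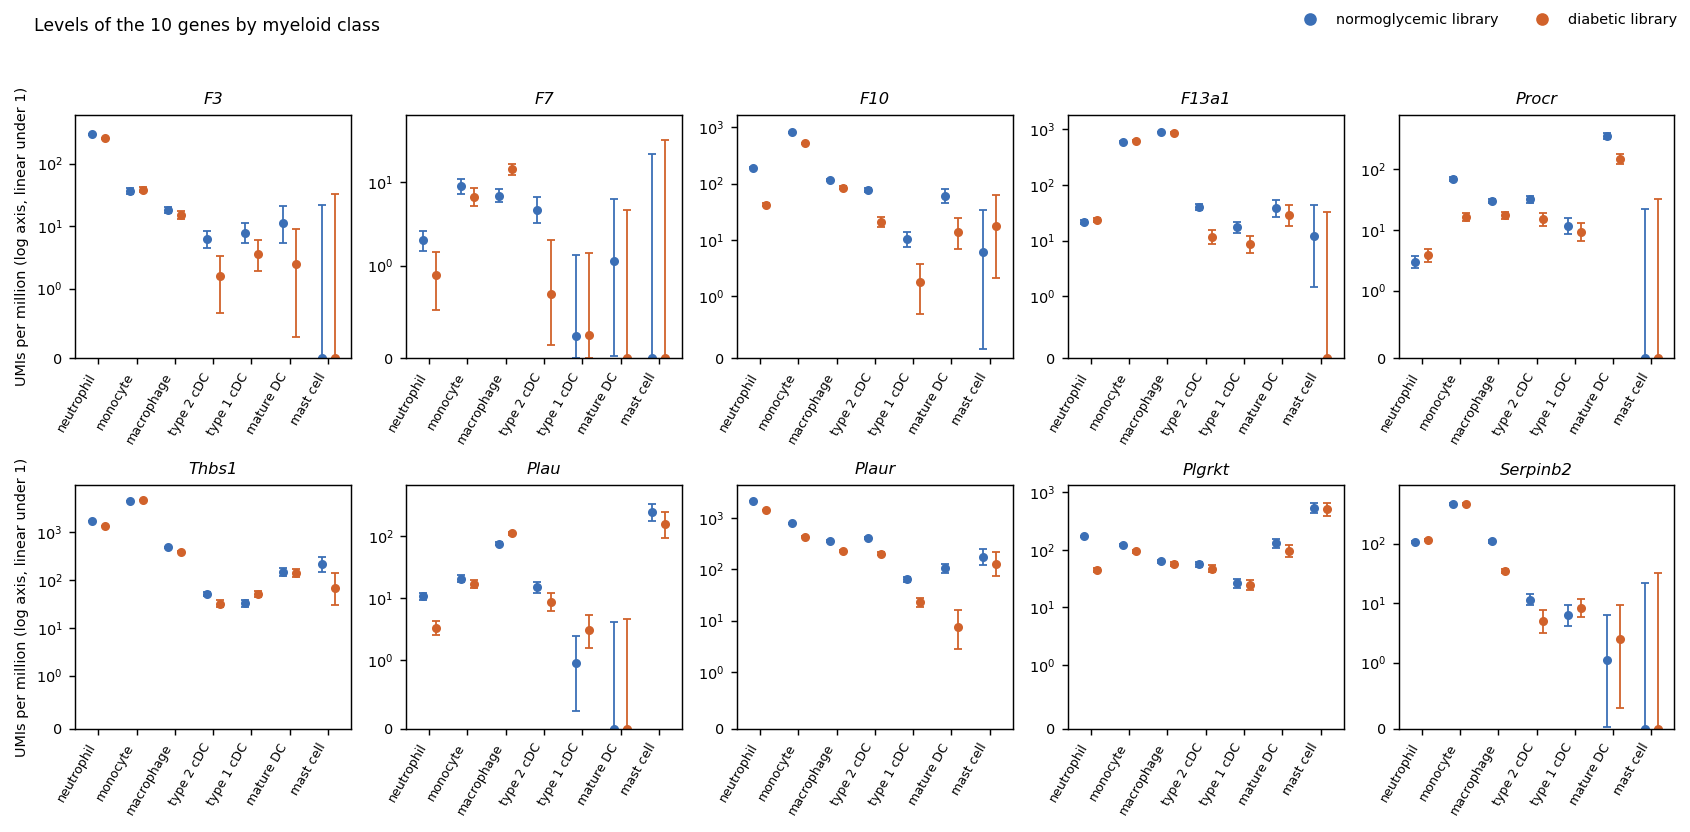
Level of each of the 10 members (CPM, log axis that is linear under 1) in the gated myeloid classes, with 1 point per library and bars for the 95% counting interval. F3 and Plaur stood highest in neutrophils, F10, Thbs1 and Serpinb2 in monocytes, F13a1 in macrophages, Procr in mature dendritic cells, and Plau and Plgrkt in mast cells, in both libraries.

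Tissue factor transcripts were concentrated in neutrophils. F3 stood at 293 CPM in normoglycemic and 252 in diabetic neutrophils, 36.4 and 38.4 in monocytes and 17.9 and 15 in macrophages, and neutrophils held 81.6% and 73.6% of all its UMIs. The order of these 3 classes was the same in both libraries, and their counting intervals did not overlap. Its ratio in neutrophils was 0.859 (0.828 to 0.891), short of 1.5-fold. Among the cells that were not leukocytes in the diabetic library, fibroblasts had 105 CPM and epithelial cells 71.7 CPM of F3.

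F7 and F10 are neighbouring genes on chromosome 8 (GRCm38), with F7 at 13026034-13035809, F10 at 13037308-13056676 and 1498 bases between them, both on the plus strand. F7 was scarce. It had 426 UMIs in the whole normoglycemic library and 401 in the diabetic one, and no class passed 14.3 CPM. In macrophages it stood at 6.90 CPM in normoglycemic and 14.3 in diabetic cells, from 120 and 193 UMIs, a ratio of 2.07 (1.64 to 2.62). Monocytes had 8.92 and 6.68 CPM and neutrophils 2.00 and 0.896, all under the 10 CPM needed for a comparison. The macrophage difference was found in cells called female, with Xist and no Y-linked UMIs (6.45 and 22.5 CPM, ratio 3.48, 2.40 to 5.17), and was not found in cells called male (6.74 and 6.32 CPM, ratio 0.938, 0.576 to 1.504).

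F10 showed another distribution than its neighbour, with monocytes highest in both libraries. Monocytes had 821 CPM in normoglycemic and 519 in diabetic cells, a ratio of 0.632 (0.611 to 0.653). Neutrophils had 192 and 42.3 CPM, from 4884 and 802 UMIs, a ratio of 0.221 (0.204 to 0.238). Macrophages had 115 and 85.02 CPM (ratio 0.740, 0.687 to 0.796) and cDC2 76.9 and 20.6 CPM (0.268, 0.211 to 0.335). Neutrophils thus ranked above macrophages in the normoglycemic library and below them in the diabetic one, with intervals that did not overlap in either. With every cell thinned to 1000 UMIs, 11.05% of normoglycemic and 2.39% of diabetic neutrophils had an F10 UMI, and 44.7% and 33.0% of monocytes did (23.0%, 5.51%, 82.2% and 72.4% before thinning).

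B cells, which are not known to make factor X, served as a background class for F10. There F10 stood at 30.8 CPM in normoglycemic and 2.80 in diabetic cells, and 1.74% and 0.658% of thinned B cells had a UMI (4.14% and 1.97% before thinning). Whether these UMIs were free RNA or came from doublets or misplaced cells was not tested. The median depth was 4654 and 4410 UMIs in B cells and 4058.5 and 3463 in neutrophils. The neutrophil and monocyte values of F10 lay above the B cell level in both libraries. Those of cDC1, 10.3 and 1.77 CPM, lay below it. Depth was higher in cDC1, with a median of 19417.5 and 18711 UMIs, so the same amount of free RNA gives fewer CPM there. Whether the cDC1 values are background was not tested.

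The 250 bases before the F10 start site at chr8:13037058-13037307 (plus strand, RefSeq, GRCm38.p6) are printed because F10 spanned 12.7 to 375 CPM over the neutrophil clusters described further on.
F10: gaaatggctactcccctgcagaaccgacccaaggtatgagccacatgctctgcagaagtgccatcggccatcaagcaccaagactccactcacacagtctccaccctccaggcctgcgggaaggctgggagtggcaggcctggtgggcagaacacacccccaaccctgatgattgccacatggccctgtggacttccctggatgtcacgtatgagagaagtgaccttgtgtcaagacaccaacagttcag
It held no match on either strand to the 5 motifs searched, TGANTCA (AP-1), TTGCNNAA (C/EBP), CCAAT, TGACGTCA (CRE) and CACGTG (E-box), which says only that these letters are not in this window.

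Factor XIII A was a monocyte and macrophage transcript in both libraries. F13a1 stood at 886 CPM in normoglycemic and 866 in diabetic macrophages (ratio 0.978) and at 595 and 622 CPM in monocytes (1.04). Macrophages held 53.7% and 51.9% of its UMIs, and 75.1% and 74.0% of macrophages had at least 1. In neutrophils it had 21.9 and 23.3 CPM, of which the 1% of cells with the most F13a1 UMIs held 70.3% and 58.1%. In cDC2 it was lower in the diabetic library, at 40.2 and 11.6 CPM (ratio 0.288, 0.209 to 0.390), although in female cells alone the ratio was 2.14 and in male cells 0.110. The antisense gene Gm30489 overlaps its exons on the opposite strand.

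Within macrophages, F13a1 marked the resident-type state. Cells high for Lyve1, Folr2, Cd163 and Timd4, markers of long-lived tissue macrophages, had 2443 CPM in normoglycemic and 2473 in diabetic cells (ratio 1.01). Macrophages high for MHC class II genes had 707 and 510 CPM. The Lyve1 state had less of the monocyte-linked members F10, at 9.22 and 7.60 CPM, and Thbs1, at 42.0 and 40.8 CPM. MHC class II-high macrophages had 104 and 68.7 CPM of F10 and 267 and 159 CPM of Thbs1. Plaur stood at 135 and 120 CPM in the Lyve1 state, beside 359 and 227 CPM in all macrophages. The Lyve1 state held 88 cells in the normoglycemic and 154 in the diabetic library.

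**Figure D2:**
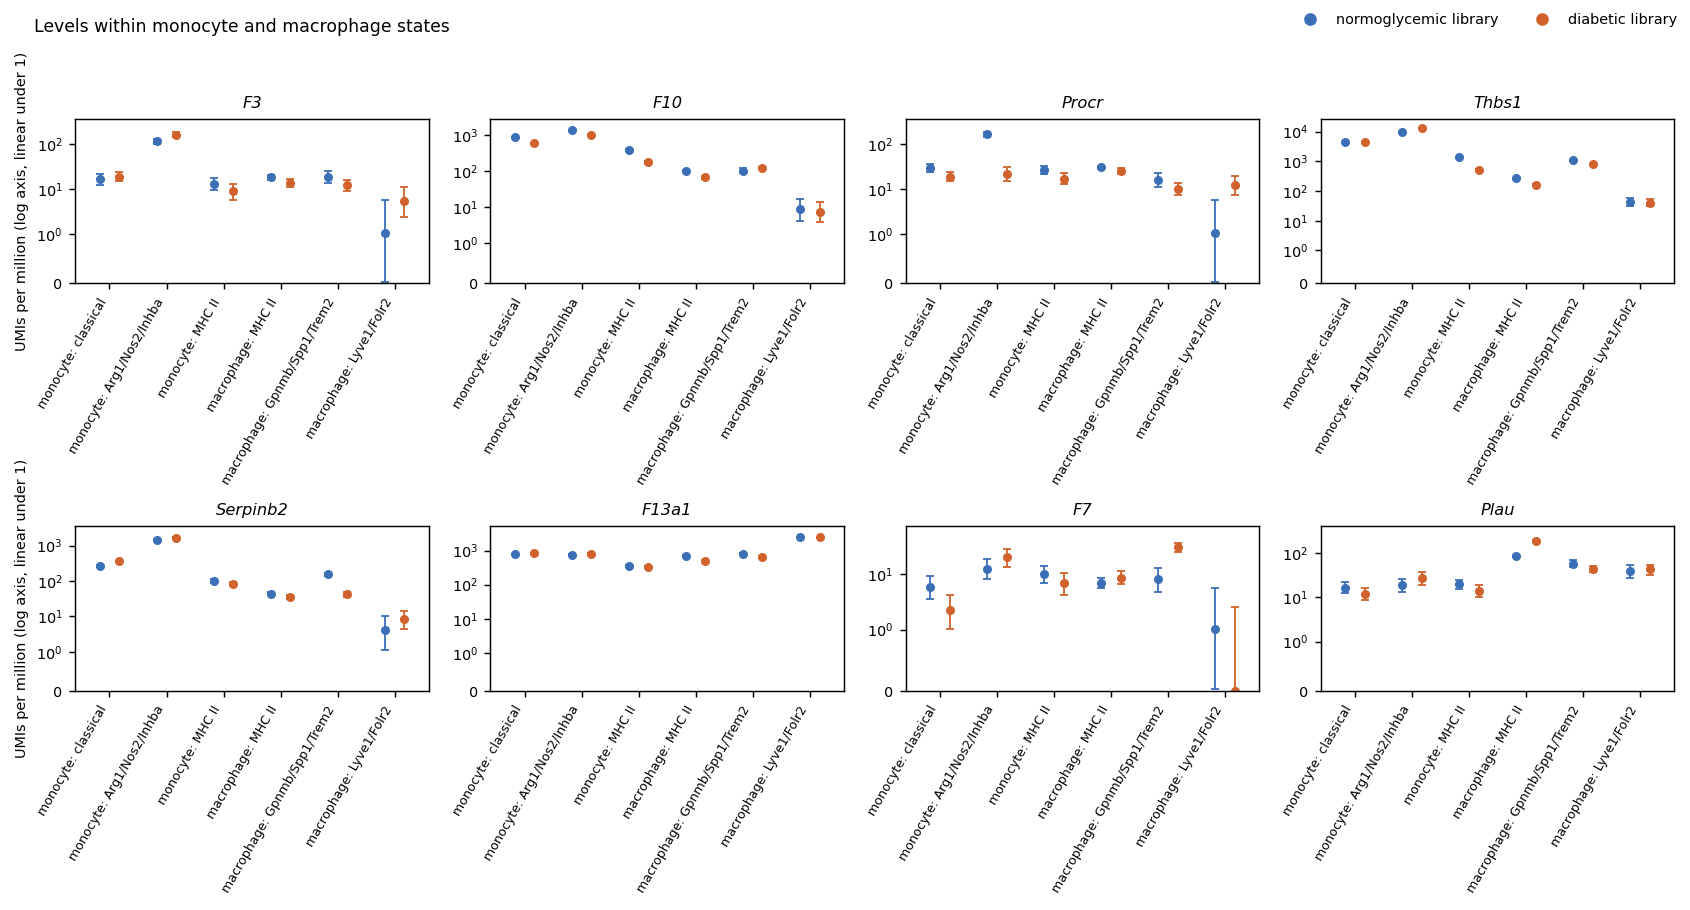
Level of 8 members (CPM, log axis that is linear under 1) in marker-gated states of monocytes and macrophages, with 1 point per library and bars for the 95% counting interval. The Arg1, Nos2 and Inhba-high monocytes had the highest Thbs1, at 9368 and 13317 CPM, and the Lyve1-high macrophages the highest F13a1, at 2443 and 2473 CPM.

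The protein C receptor separated mature dendritic cells from the other myeloid classes. Procr stood at 348 CPM in normoglycemic (62 cells) and 148 in diabetic mature dendritic cells (55 cells), with at least 1 UMI in 46.8% and 30.9% of them. In monocytes it had 68.8 and 16.6 CPM, a ratio of 0.241 (0.204 to 0.283), and 3.96% and 0.998% of cells thinned to 1000 UMIs had a UMI (15.5% and 5.52% before thinning). In macrophages it had 30.02 and 17.4 CPM (ratio 0.578, 0.494 to 0.676), a call that ended with the stricter gate (0.670), without the highest doublet scores (0.768), with states weighted (0.682) and in female cells (1.32), and in cDC2 31.7 and 15.03 CPM (0.474, 0.354 to 0.628). Diabetic macrophages, monocytes and cDC2 could not be ordered, since their intervals overlapped. B cells were near 0, at 1.71 and 1.86 CPM, and so were neutrophils, at 2.98 and 3.85 CPM. In the diabetic library mural or contractile cells had 248 CPM, above mature dendritic cells.

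The normoglycemic excess of Procr in monocytes came from part of them. Monocytes high for Arg1, Nos2 and Inhba, an inflammatory state with genes of arginine metabolism and activin, had 168 CPM in normoglycemic and 22.3 in diabetic cells (ratio 0.132, 0.0895 to 0.190). Monocytes that fitted no single state had 113 and 3.32 CPM (0.0293). Classical monocytes, high for Chil3, Vcan and Ly6c2, differed less, at 29.9 and 19.0 CPM. The cells called male had a Procr ratio of 0.222 in monocytes (0.175 to 0.279). The 87 normoglycemic and 267 diabetic monocytes called female held 8 and 39 Procr UMIs, a ratio of 1.68 with an interval of 0.773 to 4.16.

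Thbs1 was carried by monocytes and neutrophils. It stood at 4529 CPM in normoglycemic and 4739 in diabetic monocytes (ratio 1.05, 1.03 to 1.06), 1729 and 1340 CPM in neutrophils (0.775, 0.763 to 0.787) and 485 and 391 CPM in macrophages (0.807, 0.779 to 0.835). None of these passed 1.5-fold, and the order of the classes was the same in both libraries. The share of monocytes with a UMI after thinning was nevertheless lower in the diabetic library, 53.1% against 67.3% (68.1% and 81.5% before thinning). Platelets are a known source of Thbs1. A list of 8 platelet markers held Ppbp, Itga2b, Gp9, Gp1bb, Gp1ba, Treml1, Itgb3 and Tubb1. Summed over it, monocytes had 64.2 and 9.15 CPM, with Gp9, Gp1bb, Gp1ba and Tubb1 at 0 in both libraries. Neutrophils had 9.38 and 8.07 CPM, with Gp1bb, Gp1ba and Treml1 at 0 in both. The sums are not split by marker here, and Ppbp was also a leading gene of a macrophage cluster. Whether platelet RNA was part of the Thbs1 values was not tested.

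Within monocytes Thbs1 spanned a wider range in the diabetic library. Arg1, Nos2 and Inhba-high monocytes had 9368 CPM in normoglycemic and 13317 in diabetic cells (ratio 1.42, 1.39 to 1.45). Classical monocytes had 4375 and 4488 CPM. Monocytes high for MHC class II genes had 1408 and 508 CPM (0.361). The first of these states made up 16.1% of normoglycemic and 14.7% of diabetic monocytes. In cDC2 Thbs1 stood at 51.3 and 32.1 CPM (0.626, 0.511 to 0.763) and in cDC1 at 32.3 and 50.8 CPM (1.57, 1.26 to 1.97). These were below the 60.5 CPM of normoglycemic B cells but above the 7.46 CPM of diabetic B cells, and both directions depended on the settings. In cDC1 the ratio was 0.526 with the stricter gate, 0.936 with no required lead and 0.289 without the highest Scrublet doublet scores. In cDC2 it was 0.374 with the stricter gate, 1.38 without the highest doublet scores and 2.66 in female cells. The lincRNA gene Gm29233 overlaps Thbs1 exons on the opposite strand.

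**Figure D3:**
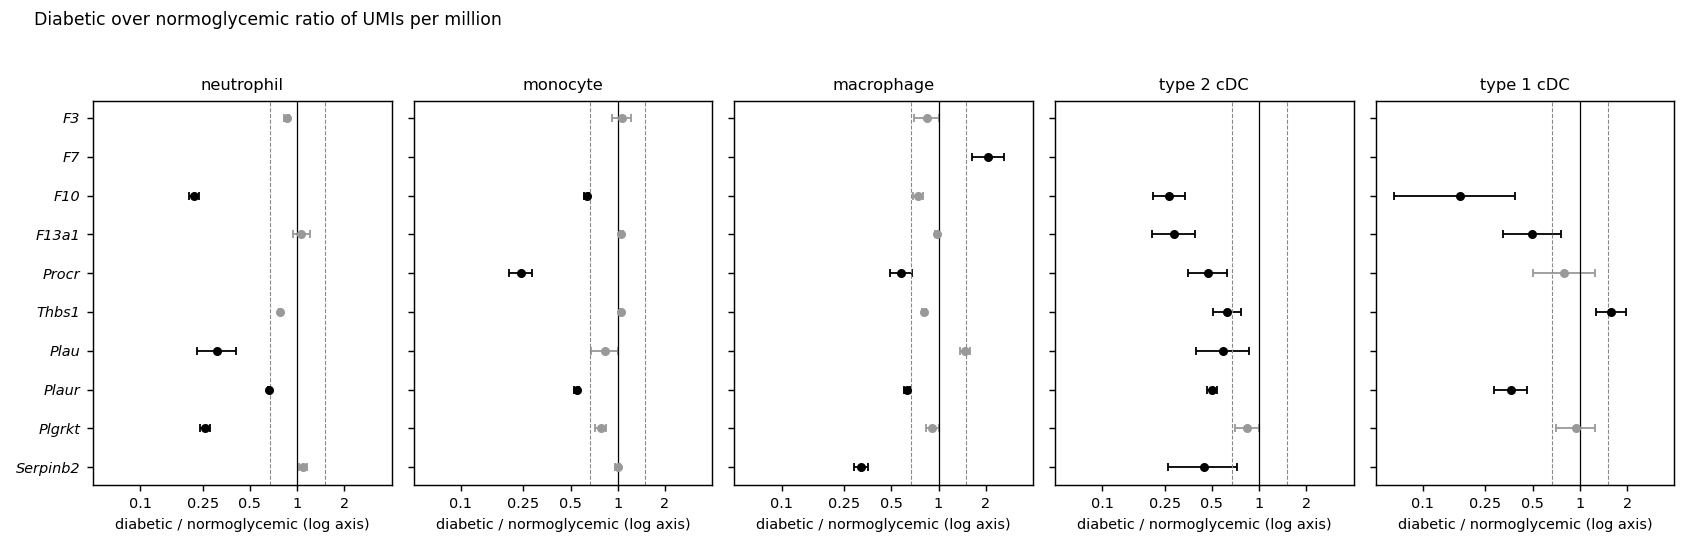
Ratio of diabetic to normoglycemic CPM (log axis) of each member in the 5 compared classes, with bars for the 95% counting interval, black where the level reached 10 CPM and the ratio 1.5-fold, grey otherwise, and dashed lines at 1.5-fold. Plaur lay between 0.502 in cDC2 and 0.663 in neutrophils in the 4 classes other than cDC1, where its level was below that of B cells.

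Urokinase, the plasminogen activator itself, was low in neutrophils and monocytes and highest in mast cells and macrophages. Plau stood at 244 CPM in normoglycemic (41 cells) and 157 in diabetic mast cells (32 cells), with overlapping intervals. Macrophages had 74.9 and 111 CPM, the latter within the interval of diabetic mast cells, a ratio of 1.48 (1.38 to 1.60) that fell just short of the 1.5-fold rule. MHC class II-high macrophages had 85.2 and 186 CPM (2.18, 2.01 to 2.37). They made up 68.5% of normoglycemic and 41.5% of diabetic macrophages. The other states were within 1.5-fold: Gpnmb, Spp1 and Trem2-high macrophages had 56.5 and 43.7 CPM (0.773, 0.607 to 0.988), those of no single state 49.4 and 45.0 CPM (0.910) and the Lyve1 state 37.9 and 42.2 CPM (1.11, 0.727 to 1.72). Most of the diabetic UMIs came from a cluster of 150 normoglycemic and 157 diabetic cells led by Cd207, Mmp12 and Mmp13, which had 273 and 414 CPM (1.51, 1.37 to 1.68) and held 929 of the 1504 diabetic Plau UMIs. In the cluster led by Gpnmb, Ppbp and Chil3, with 60.7% and 58.0% of the macrophages, the ratio was 0.980, and in the Lyve1 and Ccl8 cluster it was 0.945. In neutrophils Plau had 10.6 and 3.27 CPM (0.307, 0.229 to 0.406), and monocytes had 20.6 and 17.0 CPM (0.824).

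The urokinase receptor was lower in the diabetic library in neutrophils, monocytes, macrophages and cDC2, and in B cells too. Plaur stood at 2177 CPM in normoglycemic and 1444 in diabetic neutrophils, a ratio of 0.663 (0.653 to 0.673), and neutrophils held 66.9% and 66.7% of its UMIs. Monocytes had 794 and 434 CPM (0.546, 0.528 to 0.566), macrophages 359 and 227 CPM (0.633, 0.606 to 0.661) and cDC2 408 and 205 CPM (0.502, 0.465 to 0.541). In cDC1, 63.7 and 23.0 CPM gave a ratio of 0.362 (0.282 to 0.460). Normoglycemic cDC2 ranked above macrophages and diabetic cDC2 below them, in the diabetic library by little, with intervals of 191 to 218.6 and 219.0 to 235.

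B cells carried Plaur at 280 CPM in the normoglycemic and 161 in the diabetic library, so the lower level was not particular to the myeloid classes. Macrophages, at 359 and 227 CPM, and cDC2, at 408 and 205 CPM, lay above B cells in both libraries. The part of background in their ratios was not tested. The cDC1 values were below the B cell level in both libraries. Depth differed between these classes, and whether the cDC1 values are background was not tested. Plaur UMIs were found in 73.0% of normoglycemic and 60.1% of diabetic neutrophils after thinning (91.1% and 82.9% before). Within neutrophils, Plaur was lower in 6 of 6 clusters that held enough cells of both libraries, with ratios from 0.506 to 0.773. It was lower in 4 of 4 monocyte clusters too. The neutrophil ratio lay at the edge of the rule and missed it in male cells (0.706), while in the 48 normoglycemic and 227 diabetic female neutrophils it was 1.06 (0.940 to 1.19). In cDC2 male and female cells gave 0.526 and 0.512, in macrophages 0.704 and 0.643, and in monocytes 0.527 and 0.732.

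The plasminogen receptor Plgrkt differed mainly in neutrophils. It stood at 172 CPM in normoglycemic and 44.7 in diabetic neutrophils, a ratio of 0.260 (0.241 to 0.280). Monocytes had 122 and 94.4 CPM (0.776, 0.715 to 0.841), macrophages 63.1 and 57.5 CPM (0.911), cDC2 56.1 and 46.9 CPM (0.836, 0.702 to 0.993) and cDC1 26.3 and 24.8 CPM (0.941). Mast cells were highest, at 542 and 513 CPM with overlapping intervals. After thinning, 13.9% of normoglycemic and 4.43% of diabetic neutrophils had a UMI (36.7% and 12.5% before), beside 6.94% and 6.58% of B cells. Diabetic neutrophils were thus at or below the B cell level for this gene (44.7 against 51.3 CPM, with overlapping intervals).

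Serpinb2, the intracellular and secreted inhibitor of urokinase, was highest in monocytes among the myeloid classes. Monocytes had 462 CPM in normoglycemic and 461 in diabetic cells (ratio 0.999, 0.961 to 1.04), and 26.2% and 26.4% of them had a UMI. Neutrophils had 104 and 113 CPM (1.09, 1.02 to 1.15). Macrophages had 108 and 34.6 CPM (0.319, 0.288 to 0.353), from few cells: the 1% of macrophages with the most UMIs held 66.2% and 70.9% of them. Its exons overlap those of Serpinb10 on the same strand, so reads of these 2 genes may not have been told apart.

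Among monocyte states Serpinb2 was highest where Thbs1 was, at 1454 and 1678 CPM in the Arg1, Nos2 and Inhba-high state (ratio 1.15), against 267 and 356 CPM in classical monocytes (1.33). In macrophages the difference was found in those that fitted no single state, at 325 and 16.4 CPM (0.0505), and in those high for Gpnmb, Spp1 and Trem2, markers of lipid-handling macrophages, at 152 and 41.3 CPM (0.272). Cells called male gave a macrophage ratio of 0.142 (123 and 17.5 CPM) and cells called female 0.933 (18.6 and 17.4 CPM). In the diabetic library epithelial cells had 268 CPM and fibroblasts 171 CPM of Serpinb2.

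Serpinb2, Procr, F3 and Plaur shared a sequence feature that the choice of genes did not use. RefSeq (GRCm38.p6) windows of 250 bases before the start were at hand for 8 of the 10 members. Of these, 4 held the AP-1 motif TGANTCA, searched on both strands, beside 6.75% of 32851 windows of the same length. The units differ, since a member was counted where any of its windows matched and the share counts windows. Serpinb2 and F13a1 had more than a single window each. The stretches around the matches are shown because these are the 4 members that share the motif, with the matches in capitals.
Serpinb2, chr1:107511304-107511360, plus strand: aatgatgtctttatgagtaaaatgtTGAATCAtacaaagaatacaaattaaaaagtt
Procr, chr2:155751038-155751094, plus strand: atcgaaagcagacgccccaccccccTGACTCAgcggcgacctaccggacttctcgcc
F3, chr3:121723377-121723433, plus strand: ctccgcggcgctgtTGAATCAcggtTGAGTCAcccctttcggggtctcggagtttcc
Plaur, chr7:24462389-24462445, plus strand: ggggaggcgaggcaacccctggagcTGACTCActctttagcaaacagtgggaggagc
The first match began 94 or 181 bases before the start in Serpinb2, depending on which of its RefSeq starts is taken. It began 154 bases before the start in Procr, 146 in F3 and 69 in Plaur, and F3 held another at 135. Annotated exons covered 116 of the 250 bases in the F3 window and 100 in the Procr window. The 4 members with the AP-1 motif did not move together. In monocytes Procr and Plaur were lower, with ratios of 0.241 and 0.546, and F3 and Serpinb2 stood at 1.06 and 0.999. The F3 ratio was higher in monocytes whose sex could be called, at 1.94 (1.63 to 2.32) in male cells. In female cells, with 7 and 33 F3 UMIs, it was 1.62 (0.706 to 4.35). CCAAT was found in 4 of the 8 windows (33.8% of all), TTGCNNAA in 3 (9.56%), TGACGTCA in 0 (1.55%) and CACGTG in 0 (6.02%). A match is a description of the letters, not of binding.

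The levels of F10 and Plgrkt varied together over the neutrophil clusters. These were made without the members, but they differed in their share of each library. Both genes had been picked for differing between the libraries, so their joint variation is not independent of that choice. In the cluster led by Plet1, Sh3bp5, Hamp and Lcn2, F10 stood at 375 and 146 CPM (ratio 0.388, 0.292 to 0.507) and Plgrkt at 334 and 170 CPM (0.507). This cluster held 1586 normoglycemic and 106 diabetic cells, 29.9% and 2.14% of the neutrophils. In the cluster led by Ly6g, Mmp8 and Ngp, genes of young neutrophils, F10 had 24.7 and 12.7 CPM (0.516) and Plgrkt 38.6 and 32.9 CPM (0.850). It held 17.1% of normoglycemic and 33.4% of diabetic neutrophils. In the cluster led by Rsad2 and Ifit1, genes induced by interferon, F10 had 106 and 21.1 CPM (0.199) and Plgrkt 140 and 30.1 CPM (0.215).

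The remaining neutrophil clusters filled the range between. The cluster led by the heat shock genes Hspa1a and Hspa1b had F10 at 160 and 41.3 CPM (0.258) and Plgrkt at 166 and 60.3 CPM (0.363), and that led by Spp1, Ccl4 and Rhoh had 108 and 67.0 CPM of each (0.621). The cluster led by 1110002J07Rik and Klhl6, with 7.003% of normoglycemic and 30.3% of diabetic neutrophils, was the exception in direction for F10, at 15.7 and 22.9 CPM (1.46, 0.904 to 2.49). Plgrkt there had 45.4 and 36.8 CPM (0.809, 0.599 to 1.11). A cluster of 637 diabetic neutrophils led by the salivary gene Bpifa2 and Dcpp genes had F10 at 51.4 and Plgrkt at 49.5 CPM. When the normoglycemic clusters were weighted to the diabetic mix, an alternative chosen after seeing the data, the neutrophil ratio was 0.515 for F10, 0.572 for Plgrkt, 0.691 for Plau and 0.656 for Plaur. Without weighting these ratios were 0.221, 0.260, 0.307 and 0.663. The Bpifa2 cluster, 12.9% of the diabetic neutrophils, held only 3 normoglycemic cells of any class. Its weight went to the pooled normoglycemic neutrophils of all small clusters. For that part the weighted ratios therefore set unlike cells beside each other.

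**Figure D4:**
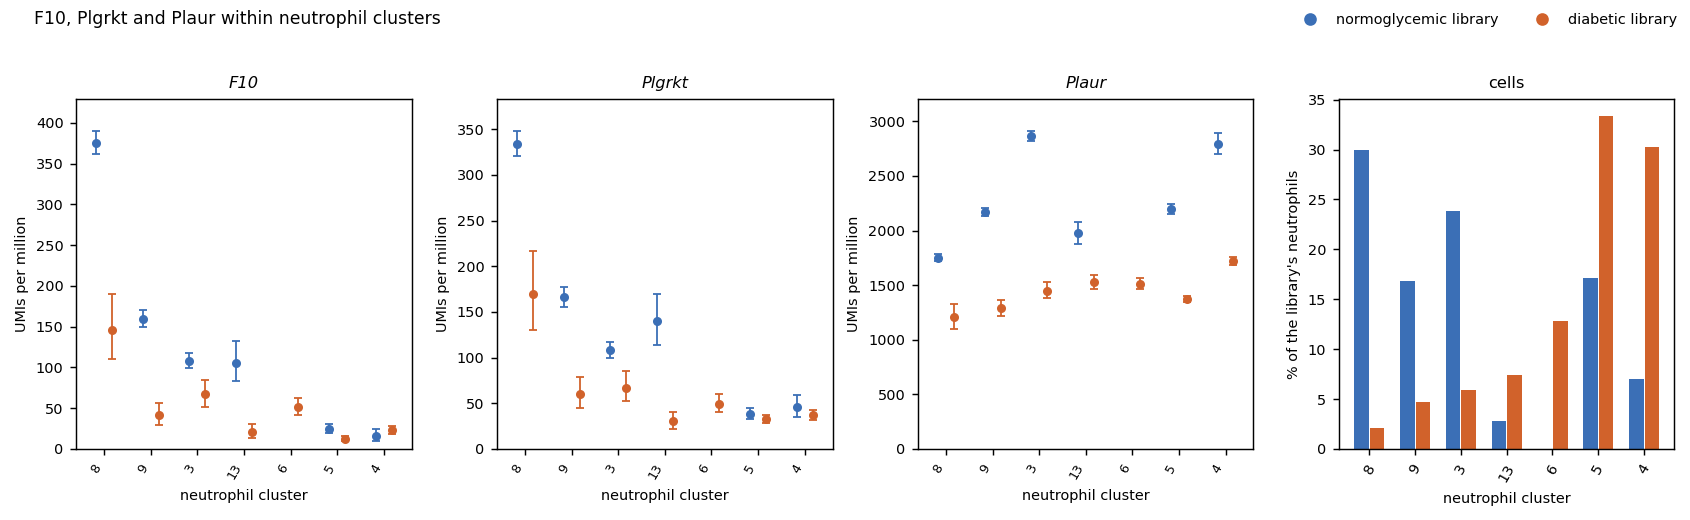
F10, Plgrkt and Plaur (CPM, linear axis, with 95% counting intervals) and the share of each library's neutrophils, by cluster, numbered 8 (Plet1), 9 (Hspa1a), 3 (Spp1), 13 (Rsad2), 6 (Bpifa2), 5 (Ly6g) and 4 (Klhl6). F10 reached 375 CPM in the Plet1 cluster of the normoglycemic library and lay between 12.7 and 24.7 CPM in the Ly6g and Klhl6 clusters of both libraries.

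Marker-gated neutrophil states gave the same order. Neutrophils high for Retnlg and Mmp8 had F10 at 11.1 and 12.1 CPM (1.09, 0.577 to 2.23) and Plgrkt at 33.2 and 29.7 CPM (0.894, 0.616 to 1.33), and they made up 4.74% of normoglycemic and 23.7% of diabetic neutrophils. Those high for Ccl3, Ccl4 and Cxcl2, inflammatory chemokines, had 211 and 59.7 CPM of F10 (0.283) and 188 and 53.8 CPM of Plgrkt (0.287), and made up 78.9% and 56.1%. F3 stood at 96.0 and 150 CPM in the first state (1.56) and at 298 and 310 CPM in the chemokine state.

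Other classes' markers moved within the gated neutrophils. The list of 8 secretory epithelial genes summed to 16.9 CPM in normoglycemic and 734 in diabetic neutrophils, with 7 of 8 detected and Prr27 at 0. In neutrophils the monocyte list summed to 943 and 1925 CPM, the macrophage list to 656 and 581 CPM and the fibroblast list to 4.08 and 32.5 CPM. The neutrophil list, a measure of neutrophil RNA in other cells, summed to 3684 and 547 CPM in B cells, 3761 and 2400 in monocytes, 3373 and 2578 in macrophages, 1703 and 1104 in cDC2 and 3108 and 1188 in cDC1, with all 10 of its markers listed. Plaur, F10, Plgrkt and Thbs1, abundant in normoglycemic neutrophils, have these values beside them in every class, and the part of carried-over RNA in their ratios was not tested. In cDC2 the monocyte list summed to 4182 and 3249 CPM and the macrophage list to 1033 and 749 CPM.

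The libraries also differed in the share of cells called female. A call needed UMIs of Xist or of Y-linked genes and not of both. No call was possible for 2504 of 5298 normoglycemic and 2863 of 4957 diabetic neutrophils. The same held for 267 and 265 monocytes and 349 and 271 macrophages. The shares are those of called cells and not the sex make-up of the pooled mice. Of neutrophils whose sex could be called, 1.72% were female in the normoglycemic library and 10.8% in the diabetic one, of monocytes 11.5% and 35.6%, and of macrophages 42.7% and 52.5%. In the dendritic cells the shares went the other way, at 47.9% and 26.8% in cDC2 and 55.0% and 29.9% in cDC1. In male neutrophils F10 had 198 and 47.7 CPM (0.241, 0.215 to 0.269) and Plgrkt 168 and 38.2 CPM (0.228, 0.201 to 0.258). The 48 and 227 female neutrophils held 25 and 71 F10 UMIs (0.676, 0.423 to 1.11) and 33 and 69 Plgrkt UMIs (0.498, 0.324 to 0.779). Male monocytes had 910 and 572 CPM of F10 (0.628), while female monocytes had 267 and 490 CPM (1.84, 1.63 to 2.09). In macrophages the F10 ratio was 0.666 (0.588 to 0.752) in male and 1.59 (1.36 to 1.86) in female cells. The Plgrkt ratio in monocytes was 0.684 (0.611 to 0.764) in male and 1.59 (1.24 to 2.07) in female cells.

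Thbs1 and Serpinb2 also split by sex. Thbs1 was higher in the diabetic library in female monocytes, at 1022 and 2827 CPM (2.77, 2.60 to 2.94), and in female macrophages, at 114 and 294 CPM (2.58). In male macrophages it was lower, at 635 and 352 CPM (0.554). Serpinb2 stood at 54.7 and 220 CPM in female monocytes (4.02, 3.10 to 5.30) and at 519 and 545 CPM in male monocytes (1.05). How many of the pooled mice were of each sex is not given in the sources used here, and sex, mouse and condition cannot be told apart in these pools.

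**Figure D5:**
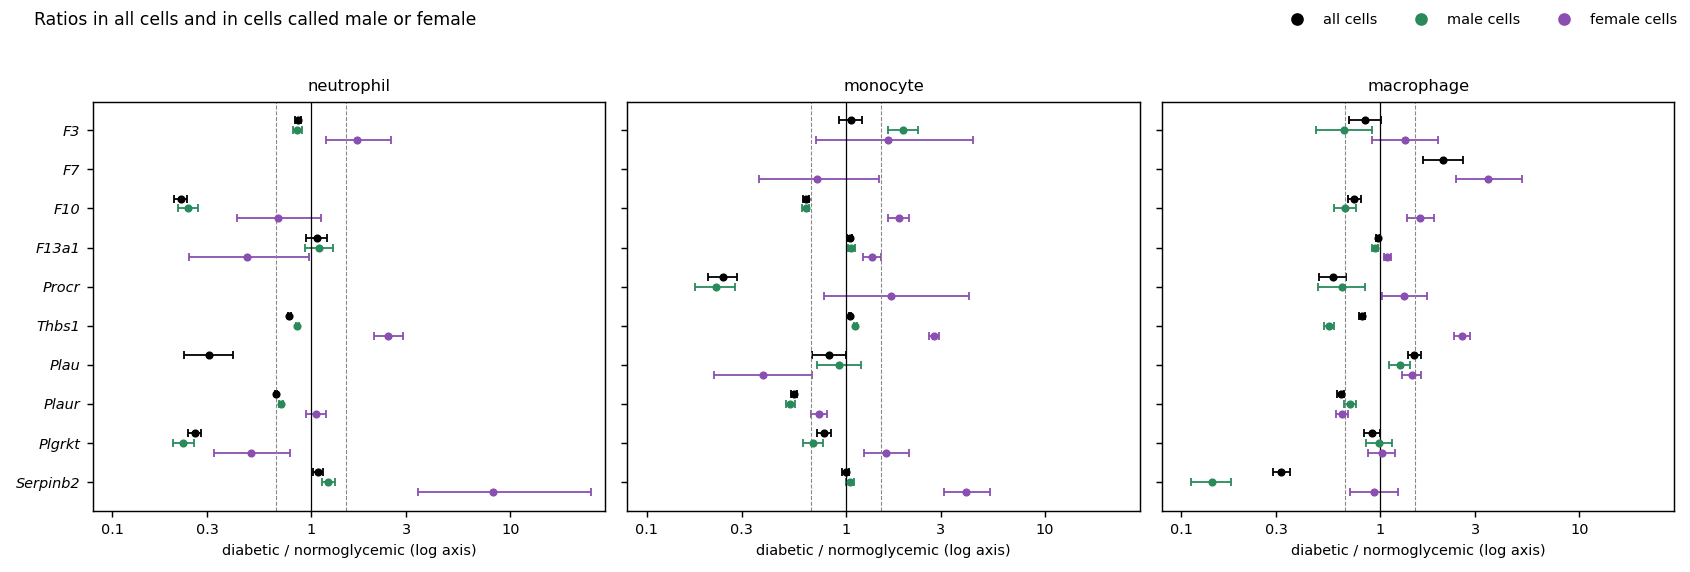
Ratio of diabetic to normoglycemic CPM (log axis) of the members in all cells, cells called male and cells called female, for neutrophils, monocytes and macrophages, with bars for the 95% counting interval. The F10 ratio in monocytes was 0.628 in male and 1.84 in female cells, and the Plaur ratio in macrophages was 0.704 and 0.643.

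Type 2 dendritic cells, which take up antigen and present it to T cells, had the most members past 1.5-fold, all of them lower: F10, F13a1, Procr, Thbs1, Plau, Plaur and Serpinb2. Plau had 14.99 and 8.79 CPM (0.586, 0.394 to 0.856) and Serpinb2 11.5 and 5.09 CPM (0.444, 0.264 to 0.719), so both rested on levels near the minimum. Of these, Plaur alone kept its call under each of the 12 alternative settings run in cDC2. Among mature dendritic cells Plaur stood at 107 and 7.58 CPM and Thbs1 at 148 and 140 CPM, and Plau had 0 UMIs in both libraries, which allows up to 3.37 and 3.79 CPM at 3 counts. Mast cells had 0 UMIs of F3, F7, Procr and Serpinb2 in both libraries, which allows up to 17.9 and 26.1 CPM, and 179 and 130 CPM of Plaur.

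Of 58 other coagulation and fibrinolysis genes, 32 stayed under 10 CPM in all 5 compared classes. In neutrophils 2 of the 14 measured were higher in the diabetic library (Serpinb6a, a serine protease inhibitor, at 5.02 and 10.4 CPM, and Lrp1, a scavenger receptor that clears protease-inhibitor complexes, at 13.8 and 20.7 CPM) and 1 was lower (Mcfd2, a cargo receptor for factors V and VIII, at 24.3 and 14.5 CPM). In cDC2 2 of 18 were higher (Plat, tissue plasminogen activator, at 9.19 and 24.97 CPM, and the integrin Itgam at 186 and 296 CPM) and 2 lower (F2rl2, a thrombin receptor, at 13.9 and 4.62 CPM, and the thrombospondin receptor Cd36 at 19.1 and 3.93 CPM). In cDC1 2 of 19 were higher (Lrp1 at 7.90 and 11.9 CPM, Itgam at 17.5 and 28.3 CPM) and 2 lower (F2rl2 at 19.6 and 12.1 CPM, Cd36 at 105 and 67.8 CPM). The calls of Lrp1 lay at the edge and ended with TMM factors in both classes, at 1.31 in neutrophils. Over all measured genes, 19.1% were higher and 13.7% lower in neutrophils, 6.39% and 7.66% in cDC2 and 5.73% and 6.45% in cDC1. Counts of 1 or 2 genes are too few to read against these shares. The median log2 ratio of the measured pathway genes was 0.28 in neutrophils, 0.04 in cDC2 and 0.11 in cDC1. The all-gene medians were 0.15, -0.00 and 0.02.

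Among regulators of coagulation and fibrinolysis, thrombomodulin (Thbd), the thrombin receptor that starts protein C activation, had 69.6 and 74.3 CPM in monocytes and 57.4 and 65.2 CPM in macrophages. The tissue factor pathway inhibitor (Tfpi) had 11.9 CPM in macrophages of both libraries, and 1.70 and 2.38 CPM in monocytes. Anxa2, a plasminogen-binding surface protein, had 1168 and 1158 CPM in monocytes, 528 and 643 in macrophages and 565 and 535 in neutrophils. Plat stood at 89.9 and 31.6 CPM in mature dendritic cells.

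The genes whose levels followed each member most closely were ranked by Pearson correlation of log2(CPM + 1) over 23 profiles, each of 1 class and library, among 10527 genes. Profiles share libraries and depth, and the values describe likeness only. F10 was followed by Il1a (0.87), Tlr2 (0.86) and Ninj1 (0.84), and Thbs1 by Sod2 (0.92), Cxcl1 (0.89) and Bnip3 (0.87). F13a1 was followed by the macrophage genes Msr1 (0.93), Tfec (0.92) and C3ar1 (0.90), and Plaur by Cd33, Il17ra and Fcgr3 (0.86 each). For Plau the nearest were Rab1a (0.89), Ccl7 (0.88) and Ccl2 (0.88), for Procr Exoc3l4 (0.88), Tmem51 (0.84) and Phf11d (0.79), and for Serpinb2 Xdh (0.86), Thbd (0.81) and Pkm (0.80). Plgrkt was followed by Osbpl8 (0.90), Sqstm1 (0.84) and Gnai3 (0.83), and F3 by Schip1 (0.87), Tgm1 (0.84) and Alas1 (0.82). Among the members themselves, Thbs1 and Serpinb2 had a correlation of 0.74 and F10 and F13a1 of 0.73, while F10 and Plgrkt had 0.24.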

How the data were processed

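The authors deposited raw UMI counts per gene and cell from Chromium 3' v3 libraries, made with Cell Ranger (version 4.0.0 per the file headers, 6.0.2 per the submitters' processing notes) on mm10. No barcode in either matrix had fewer than 500 UMIs. Antibody capture features were kept apart.

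Cells were kept with at least 500 UMIs, 200 genes and at most 15% mitochondrial UMIs (10948 normoglycemic and 10260 diabetic). Each cell took the class whose marker list scored highest (mean of log counts per 10000 UMIs scaled to the 95th percentile), with a score of at least 0.2 and a lead of 0.08, and states inside classes needed 0.3 and 0.05. Scrublet marked 2 and 0 cells where 8.76% and 8.21% were expected, so it had not worked. Cells matching 2 classes were left out instead, and an alternative also left out the 959 and 842 cells with the highest Scrublet scores, which may not be doublets. Clusters (Leiden, resolution 1.0, 30 components, 15 neighbours, 28 clusters) were made from 2000 variable genes without the members and sex-linked genes. Intervals were exact Poisson (levels), Clopper-Pearson (shares) and conditional binomial (ratios), at 95%. Log2 ratios used 0.5 added counts. Thinning to 1000 UMIs left out 65 and 59 neutrophils. The count rule was tested on simulated data, with Poisson counts for both libraries drawn from the pooled profile of a class. No variation between mice, libraries or cells was put in, so the test covers counting error only. It cannot tell how often the rule calls genes that differ for other reasons. With 200 of 3823 genes doubled or halved in neutrophils, 100.0% of those doubled and 100.0% of those halved were called, and 0.0% of unchanged genes. In cDC1, with 6540 genes, these shares were 99.0%, 95.0% and 1.01%, and in cDC2, with 6721 genes, 100.0%, 96.0% and 0.445%.

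All members and lists, and the rules for naming genes, were chosen with earlier results of these data known. All 10 members are named. Other pathway genes were named where they reached 50 CPM with an interval wholly beyond 1.5-fold, beside Thbd, Tfpi, Plat and Anxa2; some results are not reported here; the remaining named pathway genes were chosen after their values were seen. The 3 most alike genes per member needed 20 CPM. Alternative settings are given at the end. Gene positions are from GENCODE M21 (GRCm38). Scanpy 1.11.5, scipy 1.17.1, Python 3.11.15, edgeR 4.0.16 and DESeq2 1.42.0 (scaling factors only) were used.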

Additional observations from a re-analysis of the deposited data

Results flagged for a closer look

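Thbs1 moved in opposite directions in the dendritic cell classes, with a ratio of 1.57 in type 1 and 0.626 in type 2 conventional dendritic cells. The first call ended in 7 of 12 alternatives, down to 0.289, and the second turned to 1.38 and 2.66 in 2 of them. The normoglycemic levels of 32.3 and 51.3 CPM were below the 60.5 CPM of normoglycemic B cells. The Plau ratio was 1.48 in macrophages, short of the 1.5-fold rule, and 0.307 in neutrophils. Neither difference between classes was tested, since each condition had 1 library.

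The antibody capture features, which no comparison used, held 700188 UMIs in the normoglycemic and 250351 in the diabetic library, a median of 8 and 4 per barcode.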

How the results depend on the processing

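Of the 22 member ratios past the rule, each was recomputed under 11 to 13 settings; 40 of 273 alternative values ended the call and 17 reversed the direction, and no call ended for Plgrkt in neutrophils or for Plaur in cDC2 and cDC1. No paired analysis was possible because each condition had 1 library. Gates with no required lead and cluster weighting were chosen after seeing the data. In female cells alone the ratio turned to 1.06 for Plaur in neutrophils, 1.84 for F10 and 1.68 for Procr in monocytes, 1.32 for Procr in macrophages, 2.14 for F13a1, 2.66 for Thbs1 and 2.13 for Serpinb2 in cDC2, 0.659 for Thbs1 in cDC1 and 0.701 for Lrp1 in neutrophils. In male cells F7 in macrophages was 0.938. Classes from Leiden clusters gave 1.36 for F13a1, 0.6002 for Thbs1, 0.843 for Lrp1 and 1.13 for Cd36 in cDC1 and 0.981 for Plat in cDC2. Leaving out the highest Scrublet scores gave 1.38 for Thbs1 in cDC2, and 1.18 for F13a1 and 0.289 for Thbs1 in cDC1. The stricter gate gave 0.526 for Thbs1 in cDC1, no required lead gave 0.936 for it and 1.01 for Procr in cDC2, and cluster weighting gave 0.910 for Lrp1 in neutrophils. The causes were not tested.

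The members counted as lower in neutrophils (4) became 2 in male cells, 2 in female cells and 2 with states weighted, and those higher (0) became 3 in female cells. In monocytes the 3 lower became 1 in female cells and the 0 higher became 1 in male and 6 in female cells. In macrophages the 3 lower became 5 in male cells, 1 in female cells and 1 with states weighted, and the 1 higher became 0 in male cells, 3 in female cells, 2 with states weighted, 2 with the mean over cells and 0 at 50 CPM. In cDC2 the 7 lower became 2 in female cells and 3 at 50 CPM, and the 0 higher became 3 in female cells. In cDC1 the 3 lower became 1 at 50 CPM, and the 1 higher became 3 from Leiden clusters, 2 in female cells, 2 with no minimum level, and 0 with the stricter gate, without the highest Scrublet scores, in male cells, with no required lead and with cluster weighting. Over all genes, those lower in neutrophils (566) became 613 in male cells, 2942 in female cells and 480 with states weighted. Those higher (786) became 721 in female cells, 281 with states weighted and 127 with clusters weighted. In monocytes the 493 genes lower became 1753 in female cells. The 335 higher became 522 in male and 592 in female cells. All-gene counts for macrophages, cDC2 and cDC1 under these settings are not given here, nor are the numbers of genes measured under each setting. The changed member counts therefore cannot be set against all-gene shares. They are descriptions and not results about the members. Of 574 alternative values of levels, 51 moved over 1.5 times. Depth limits F7, with 426 and 401 UMIs per library, and the classes of under 100 cells. Cells that fitted no class held 25.9% of the F10 UMIs of each library, and 36.9% and 24.6% of Procr.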
